A study of Mus musculus with 9 samples.

Results

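The 9 genes described here encode enzymes that make or break down asparagine, glutamine, glutamate, aspartate, alanine and proline: Asns, Glul, Glud1, Got1, Got2, Gpt2, Aldh18a1, Pycr1 and Prodh. They were chosen by name from what their products do, with earlier results of these data known. All 9 were found among the 54532 genes of the deposited tables. Transcripts were measured in 9 libraries of poly A enriched RNA from 3T3-L1, a line of mouse fibroblasts committed to the fat lineage (preadipocytes) that fills with lipid under hormonal stimulation. All 9 libraries came from cells held at confluence for 3 days. The 3 Undifferentiated libraries came from such cells in calf serum without inducers. The 3 Differentiated libraries came from confluent cells moved to fetal bovine serum with lysine and 4 inducers, namely insulin at 10 μg/mL, rosiglitazone (a PPARγ agonist) at 1 μM, the glucocorticoid dexamethasone at 1 μM and the phosphodiesterase inhibitor IBMX at 0.5 mM. The 3 Lysfree libraries came from cells given the same inducers with no lysine added. The study describes 3 days of lysine-free culture, with RNA taken after differentiation. Differentiated and Lysfree cells therefore shared serum, base medium and inducers, whereas Undifferentiated cells differed from both in all of these. Undifferentiated cells may also have differed from both in total time in culture. The labels do not say whether the 3 libraries of a group came from separate cultures, so p values measure the spread between these libraries, which may be technical.

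Glutamate is the amino group store of the cell. Glutamine synthetase (Glul) turns it into glutamine with ammonia and ATP, while glutamate dehydrogenase (Glud1) and the transaminases (Got1, Got2, Gpt2) exchange it for 2-oxoglutarate, aspartate and alanine. Asparagine synthetase (Asns) transfers the amide nitrogen of glutamine to aspartate. Proline is built from glutamate by Aldh18a1 and then a pyrroline-5-carboxylate reductase (such as Pycr1 or Pycrl), and is oxidised back to glutamate by Prodh and Aldh4a1. In amino acid shortage the kinase GCN2 favours translation of the transcription factor ATF4, and Asns is a textbook target of ATF4. In adipose tissue, glutamine synthetase is also known as a gene that glucocorticoids induce.

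The promoters of all 9 genes were found in the RefSeq table for GRCm38.p6, as windows of 300 bases that run from 250 before to 50 after the annotated start. They were searched on both strands for TGATGNAA (a composite site of ATF4 and C/EBP factors), TGACGTCA (the cAMP response element) and CACGTG (the E-box), which do not overlap each other here. TGATGNAA was found in 3 of the 9 windows, those of Asns, Got1 and Pycr1, against 3.97% of all 32851 promoters in the table. CACGTG was found in 1 window, that of Aldh18a1, against 7.15% of all promoters, and TGACGTCA in 0 of the 9, against 1.79%. The 3 windows with TGATGNAA are shown, since the transcripts behind them moved in different ways, together with the window of Glul, the gene that changed most, in which none of the 3 motifs was found. The sequences are those of RefSeq, 5′ to 3′ on the strand of the gene, with the match in capitals. The windows are chr6:7693160-7693459 (minus strand) for Asns, chr19:43524556-43524855 (minus strand) for Got1, chr11:120643699-120643998 (minus strand) for Pycr1 and chr1:153899679-153899978 (plus strand) for Glul.
Asns: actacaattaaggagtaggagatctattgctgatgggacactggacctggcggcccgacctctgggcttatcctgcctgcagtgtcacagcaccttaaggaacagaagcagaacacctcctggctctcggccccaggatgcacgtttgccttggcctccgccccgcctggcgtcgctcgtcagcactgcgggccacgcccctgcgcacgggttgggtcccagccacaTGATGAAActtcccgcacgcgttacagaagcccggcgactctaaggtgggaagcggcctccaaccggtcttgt
Got1: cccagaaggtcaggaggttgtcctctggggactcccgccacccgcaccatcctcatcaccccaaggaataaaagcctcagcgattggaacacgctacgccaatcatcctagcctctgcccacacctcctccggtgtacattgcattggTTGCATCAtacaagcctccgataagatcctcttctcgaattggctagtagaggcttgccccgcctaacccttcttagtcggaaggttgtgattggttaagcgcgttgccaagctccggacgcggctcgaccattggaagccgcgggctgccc
Pycr1: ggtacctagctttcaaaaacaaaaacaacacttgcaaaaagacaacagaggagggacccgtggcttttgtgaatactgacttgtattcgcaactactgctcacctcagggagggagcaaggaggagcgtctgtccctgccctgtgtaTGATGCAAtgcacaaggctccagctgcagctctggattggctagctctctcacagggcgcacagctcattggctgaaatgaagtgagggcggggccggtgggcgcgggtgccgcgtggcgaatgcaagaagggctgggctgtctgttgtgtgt
Glul: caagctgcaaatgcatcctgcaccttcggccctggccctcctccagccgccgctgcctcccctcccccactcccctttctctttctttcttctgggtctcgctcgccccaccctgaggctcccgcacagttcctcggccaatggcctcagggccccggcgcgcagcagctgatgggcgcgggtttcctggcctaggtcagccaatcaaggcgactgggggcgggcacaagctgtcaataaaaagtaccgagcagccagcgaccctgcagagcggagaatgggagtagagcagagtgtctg
The match began 23 bases before the start in Asns (TGATGAAA) and 103 before it in Pycr1 (TGATGCAA), and in Got1 it lay on the opposite strand, 102 before the start, so that it reads TTGCATCA in the sequence above. A match is a description of the letters and not evidence that a factor binds there.

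Total counts on genes ranged from 15880144 to 21806693 per library. Adipocyte markers (8 of 8 detected) summed to between 6890 and 7245 FPKM in Differentiated libraries, and to between 314 and 395 FPKM in Undifferentiated and 292 to 408 FPKM in Lysfree libraries. FPKM are the deposited fragments per gene length and library total, with a further factor per library that ran from 0.988 to 0.994 in Undifferentiated, 1.032 to 1.037 in Differentiated and 0.932 to 0.953 in Lysfree libraries. This factor enters levels set side by side across groups, but neither the fold changes fitted to counts nor ratios within a library. Preadipocyte or fibroblast markers summed to between 3756 and 4016 FPKM in Undifferentiated, 860 to 864 FPKM in Differentiated and 1421 to 1444 FPKM in Lysfree libraries. Collagen genes weighed most in this sum, with Col1a1 at a mean of 1887 FPKM in Undifferentiated and 327 FPKM in Lysfree libraries. Between the same groups Ly6a went up from 94.1 to 390 FPKM and Thy1 from 70.4 to 89.1 FPKM. Of 5 macrophage markers, Ptprc and Adgre1 stayed at 3 counts or fewer in every library and the list summed to at most 10.7 FPKM. Endothelial and epithelial markers summed to at most 1.72 FPKM and muscle markers to at most 3.98 FPKM. The summed adipocyte marker level thus moved together with several members below, and its part in their changes was not tested. In bulk RNA, fewer cells of a type and less RNA per cell cannot be told apart. Lysfree 1 stood apart from its group, with a chi-square per degree of freedom of 39.6 and 40.7 against Lysfree 2 and 3, which differed from each other by 2.67. Of the 9 members, 8 were highest in Lysfree 1 among the Lysfree libraries, against 45.5% of 12710 genes whose mean reached 1 CPM (counts scaled to library size).

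Counts were compared by the quasi-likelihood method of edgeR with TMM factors, in the 6 libraries of each pair of groups, with Benjamini-Hochberg adjustment over all genes tested. A gene was called at an adjusted p under 0.05, and was a differentially expressed gene (DEG) if it also changed at least 2-fold. In Differentiated vs Undifferentiated, 8 of the 9 members rose, 0 fell and Pycr1 did not pass, against 46.1% of 24402 genes called in either direction and 23.0% called higher. Asns, Glul, Glud1, Got1 and Prodh were DEGs, 5 of 9 against 10.4% of all genes that were DEGs in that direction. In Lysfree vs Undifferentiated, 6 members rose, Pycr1 fell, and Glul and Got2 did not pass, against 35.1% of 23994 genes called, 18.0% of them higher and 17.1% lower. Asns, Got1 and Gpt2 were DEGs there, 3 of 9 higher against 5.52% of all genes and 0 lower against 8.76%. In Lysfree vs Differentiated the members divided. Got1, Gpt2 and Aldh18a1 rose, while Glul, Glud1, Got2, Pycr1 and Prodh fell and Asns did not pass, against 38.5% of 24130 genes called, 19.7% higher and 18.8% lower. The DEGs were Glul and Prodh, both lower, 2 of 9 against 10.5% of all genes, with 0 higher against 8.14%.

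The median log2 fold change of the 9 members was 1.01 in Differentiated vs Undifferentiated (0.02 over all genes), 0.70 in Lysfree vs Undifferentiated (-0.02 over all genes) and -0.38 in Lysfree vs Differentiated (-0.06 over all genes). The FPKM of 8 members did not overlap between the groups in each comparison, against 50.9%, 43.5% and 46.6% of all genes in the same order. The 3 comparisons share libraries, so the counts are not independent of each other. Small p values in Differentiated vs Undifferentiated rest on a shared estimate of the spread over all genes. With edgeR's expression filter in place, the adjusted p of Glud1 there was 3.2e-10 in place of 8.39e-80, with the same call.

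**Figure D1:**
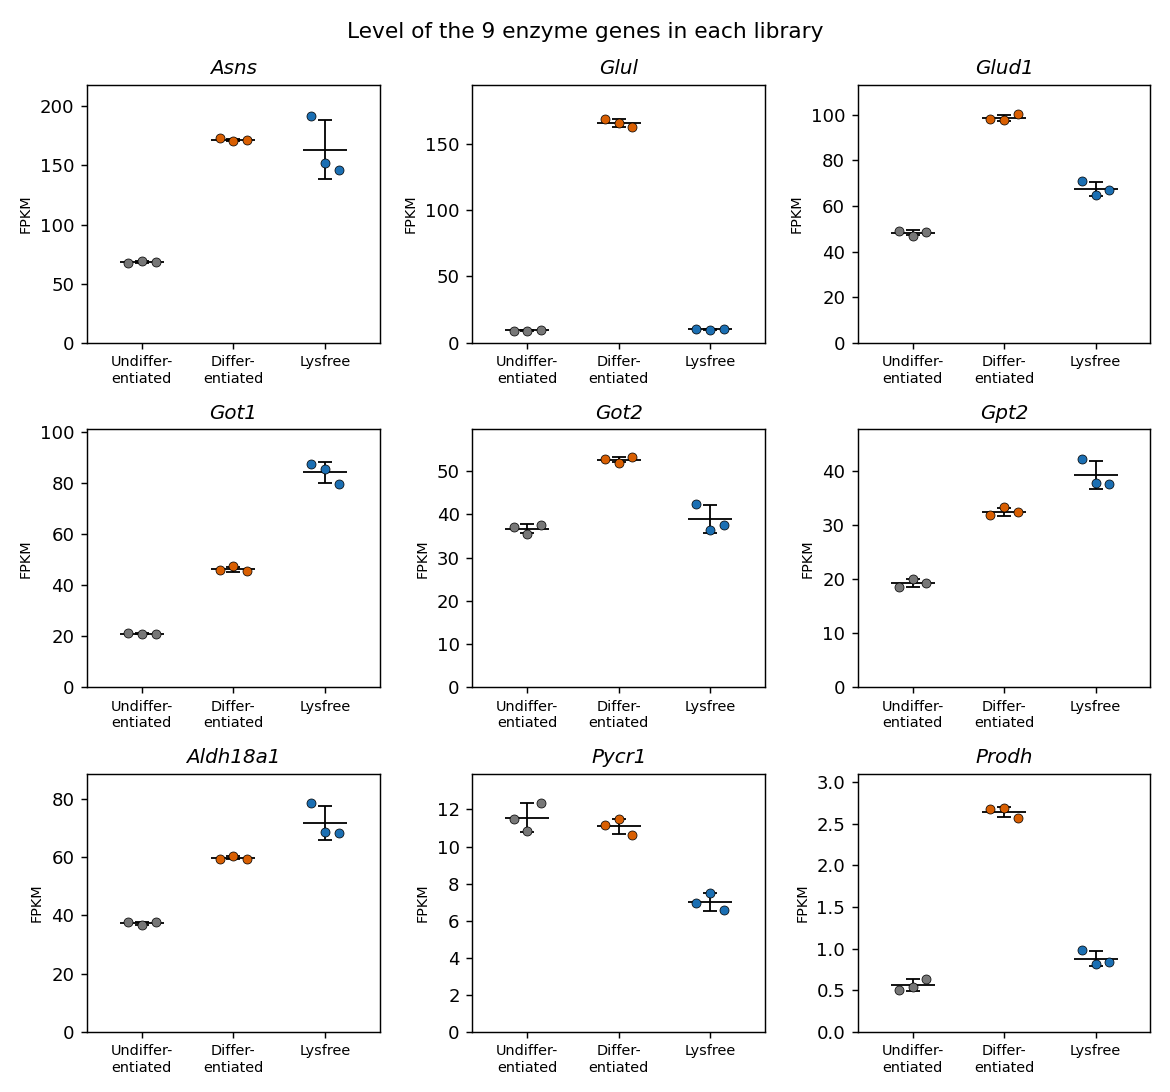
Level of each enzyme gene in FPKM (vertical axes from 0, 1 panel per gene) in the 3 libraries of each group (points), with the group mean and SD (bars, n = 3). Glul, Glud1, Got2 and Prodh stand highest in the Differentiated libraries, and Got1, Gpt2 and Aldh18a1 in the Lysfree libraries. Pycr1 is lowest in the Lysfree libraries, from 6.55 to 7.49 FPKM.

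Glul showed the widest change of the 9 genes. Glul (ENSMUSG00000026473, mm10 chromosome 1, 153899944 to 153909723, plus strand) encodes glutamine synthetase, which makes glutamine from glutamate and ammonia. Its level was 9.14, 9.15 and 9.57 FPKM in Undifferentiated 1 to 3, 169, 166 and 163 FPKM in Differentiated 1 to 3, and 10.6, 9.63 and 10.4 FPKM in Lysfree 1 to 3. All Differentiated libraries stood far above the other 6, and the Lysfree libraries lay just above the Undifferentiated libraries with no overlap. Glul rose 17.5-fold in Differentiated vs Undifferentiated (log2 fold change 4.13 ± 0.06 (SE)), and its adjusted p was returned as 0 by the software. In Lysfree vs Differentiated it was 15.5-fold lower (log2 fold change -3.96 ± 0.09, edgeR adjusted p = 5.19e-18), at 6.15% of the Differentiated mean. In Lysfree vs Undifferentiated the log2 fold change was 0.18 ± 0.12, with a 95% interval from -0.06 to 0.43 (edgeR adjusted p = 0.268), although the FPKM did not overlap. That difference was not called in any of the 6 fits with a library left out.

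Glud1 lay between the groups in Lysfree cells. Glud1 (ENSMUSG00000021794, chromosome 14, 34310727 to 34345265, plus strand) encodes the mitochondrial enzyme that converts glutamate to 2-oxoglutarate and ammonia. Its level was 49.1, 46.9 and 48.7 FPKM in Undifferentiated, 98.2, 97.7 and 100.1 FPKM in Differentiated and 70.9, 64.9 and 67.0 FPKM in Lysfree libraries. No library of any group overlapped another group. Glud1 rose by a log2 fold change of 1.01 ± 0.05 in Differentiated vs Undifferentiated (edgeR adjusted p = 8.39e-80), and was 1.40-fold lower in Lysfree vs Differentiated (-0.48 ± 0.08, adjusted p = 4.58e-05). Against Undifferentiated it remained higher in Lysfree cells by 0.53 ± 0.10 (adjusted p = 2.27e-05). The first change sat at the 2-fold threshold and was 0.99 without Undifferentiated 2 and 0.99 without Differentiated 3, so that Glud1 was then called but no DEG.

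Other genes that use glutamine or glutamate were followed in a list of 22 symbols besides Glul and Glud1. Of the 19 tested in Lysfree vs Differentiated, 5 rose, 8 fell and 6 did not pass, and their median log2 fold change was -0.30 (-0.06 over all genes). Among all genes tested, 19.7% were called higher and 18.8% lower in this comparison. The shares were 23.0% and 23.2% in Differentiated vs Undifferentiated, and 18.0% and 17.1% in Lysfree vs Undifferentiated. They apply to the counts of the lists below as well. Ctps2, a CTP synthase that draws on glutamine, fell from 28.0 ± 0.730 FPKM (SD, n = 3) in Differentiated to 9.22 ± 1.30 FPKM in Lysfree libraries (log2 fold change -1.54 ± 0.10, adjusted p = 1.07e-10). The other CTP synthase of the list, Ctps, rose from 24.9 ± 1.57 to 36.7 ± 1.09 FPKM (0.63 ± 0.09, edgeR adjusted p = 8.07e-06). Abat and Aldh5a1, which break down GABA, fell like Ctps2 but from low levels. Abat went from 0.588 ± 0.107 to 0.0271 ± 0.0175 FPKM and Aldh5a1 from 0.281 ± 0.0827 to 0.0800 ± 0.0328 FPKM. In Differentiated vs Undifferentiated, 13 of 19 of these genes rose and 3 fell, with a median of 0.68, and in Lysfree vs Undifferentiated 9 of 17 rose and 6 fell, with a median of 0.44.

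The aspartate aminotransferases moved apart. Got1, the cytosolic enzyme, and Got2, its mitochondrial counterpart, interconvert aspartate and glutamate and together carry reducing equivalents across the inner membrane in the malate-aspartate shuttle. Got1 (ENSMUSG00000025190, chromosome 19, 43499752 to 43524605, minus strand) was at 21.3, 21.0 and 20.9 FPKM in Undifferentiated, 45.8, 47.4 and 45.4 FPKM in Differentiated and 87.7, 85.6 and 79.7 FPKM in Lysfree libraries. The groups did not overlap and the Lysfree libraries were highest. Got1 rose 2.16-fold in Differentiated vs Undifferentiated (log2 fold change 1.11 ± 0.06, edgeR adjusted p = 1.23e-66) and 4.14-fold in Lysfree vs Undifferentiated (2.05 ± 0.10, adjusted p = 2.4e-17). In Lysfree vs Differentiated it rose 1.91-fold (0.93 ± 0.09, adjusted p = 1.41e-08), under the 2-fold threshold for a DEG. Scaling by library sizes alone placed this change at 1.005, just over the log2 threshold of 1.

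Got2 (ENSMUSG00000031672, chromosome 8, 95864134 to 95888547, minus strand) was at 37.1, 35.5 and 37.5 FPKM in Undifferentiated, 52.8, 52.0 and 53.3 FPKM in Differentiated and 42.5, 36.4 and 37.6 FPKM in Lysfree libraries. Lysfree 2 lay within the Undifferentiated range and Lysfree 1 and 3 above it, all under the Differentiated libraries. Got2 rose by 0.50 ± 0.05 in Differentiated vs Undifferentiated (edgeR adjusted p = 2.6e-19) and was 1.30-fold lower in Lysfree vs Differentiated (log2 fold change -0.38 ± 0.09, adjusted p = 0.0013). The change in Lysfree vs Undifferentiated was 0.13 ± 0.10, with a 95% interval from -0.07 to 0.33 (adjusted p = 0.353).

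Gpt2 rose in steps from Undifferentiated to Differentiated to Lysfree cells. Gpt2 (ENSMUSG00000031700, chromosome 8, 85492576 to 85527560, plus strand) encodes the mitochondrial alanine aminotransferase, which makes alanine from pyruvate with glutamate as the donor. It was at 18.5, 20 and 19.3 FPKM in Undifferentiated, 31.8, 33.2 and 32.3 FPKM in Differentiated and 42.1, 37.8 and 37.5 FPKM in Lysfree libraries. No groups overlapped. The log2 fold change was 0.73 ± 0.06 in Differentiated vs Undifferentiated (edgeR adjusted p = 1.09e-36), 1.07 ± 0.10 in Lysfree vs Undifferentiated (adjusted p = 7.79e-11) and 0.33 ± 0.09 in Lysfree vs Differentiated (adjusted p = 0.00326). Without Lysfree 1 the second of these was 0.99, called but no longer 2-fold, and the third 0.26.

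Of 13 other transaminase genes, 10 were tested in Lysfree vs Differentiated, where 1 rose, 6 fell and 3 did not pass, with a median log2 fold change of -0.41. The gene that rose was Bcat1, the cytosolic branched-chain aminotransferase, at 9.39 ± 0.273 FPKM in Differentiated and 32.7 ± 2.87 FPKM in Lysfree libraries (1.86 ± 0.09, edgeR adjusted p = 5.76e-13). Its mitochondrial counterpart Bcat2 fell from 86.2 ± 1.08 to 11.6 ± 1.18 FPKM (-2.83 ± 0.10, adjusted p = 2.73e-15). Gpt, the cytosolic alanine aminotransferase, fell from 29.3 ± 1.59 to 2.85 ± 0.830 FPKM (-3.29 ± 0.16, adjusted p = 4.47e-13), against the direction of Gpt2. Of the 10, 7 rose and 1 fell in Differentiated vs Undifferentiated (median 1.20), and in Lysfree vs Undifferentiated 3 rose and 3 fell (median 0.03).

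Asns was higher in both groups that received the inducers. Asns (ENSMUSG00000029752, chromosome 6, 7675169 to 7693254, minus strand) was at 67.4, 69.1 and 68.7 FPKM in Undifferentiated, 173, 171 and 171 FPKM in Differentiated and 192, 152 and 146 FPKM in Lysfree libraries. Lysfree 1 was above and Lysfree 2 and 3 were below every Differentiated library, so that these groups overlapped, while both lay above all Undifferentiated libraries. Asns rose 2.46-fold in Differentiated vs Undifferentiated (log2 fold change 1.30 ± 0.05, edgeR adjusted p = 3.69e-132) and 2.47-fold in Lysfree vs Undifferentiated (1.30 ± 0.10, adjusted p = 2.84e-12). In Lysfree vs Differentiated the log2 fold change was -0.01 ± 0.09, with a 95% interval from -0.20 to 0.19 (adjusted p = 0.968). This value turned on Lysfree 1. Without it, Asns fell by 0.16 on the log2 scale (adjusted p = 1.2e-04), and the sign was positive and not called without Lysfree 2 (0.04), without Lysfree 3 (0.06) or with library sizes alone (0.07).

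Among 15 other genes of asparagine and aspartate use, 13 were tested in Lysfree vs Differentiated, where 19.7% of all genes were called higher and 18.8% lower. Of the 13, 3 rose, 7 fell and 3 did not pass, with a median of -0.58 (-0.06 over all genes). The DEG that rose was Ass1, argininosuccinate synthase, which condenses aspartate with citrulline. Ass1 was at 51.8 ± 0.795 FPKM in Undifferentiated, 13.6 ± 1.62 FPKM in Differentiated and 136 ± 27.5 FPKM in Lysfree libraries, and rose by 3.39 ± 0.14 in Lysfree vs Differentiated (edgeR adjusted p = 2.91e-14). Acy3, an aminoacylase, fell from 4.81 ± 0.0032 to 0.758 ± 0.0280 FPKM (-2.59 ± 0.22, adjusted p = 3.42e-09), and Ddo, D-aspartate oxidase, from 0.226 ± 0.0523 to 0.0225 ± 0.0140 FPKM (-3.24 ± 0.46, adjusted p = 5.01e-06). Nat8l, which makes N-acetylaspartate, was at 2.82 ± 0.210 FPKM in Differentiated libraries and had 2 counts in Lysfree 1 and 0 in Lysfree 2 and 3. Of 14 of these genes, 9 rose and 1 fell in Differentiated vs Undifferentiated (median 0.45), and in Lysfree vs Undifferentiated 4 rose and 5 fell (median -0.63).

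The proline genes did not move together in Lysfree cells. Aldh18a1 (ENSMUSG00000025007, chromosome 19, 40550257 to 40588463, minus strand) encodes the synthase that turns glutamate into pyrroline-5-carboxylate, the committed step of proline synthesis. It was at 37.6, 36.7 and 37.6 FPKM in Undifferentiated, 59.5, 60.4 and 59.5 FPKM in Differentiated and 78.5, 68.6 and 68.2 FPKM in Lysfree libraries, with no overlap between groups. Aldh18a1 rose by 0.65 ± 0.05 in Differentiated vs Undifferentiated (edgeR adjusted p = 4.81e-32), 0.99 ± 0.10 in Lysfree vs Undifferentiated (adjusted p = 3.66e-10) and 0.33 ± 0.09 in Lysfree vs Differentiated (adjusted p = 0.00371). The second change lay just under 2-fold and was 1.02 without Lysfree 2 and 1.02 without Lysfree 3, where Aldh18a1 was a DEG.

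Pycr1 was the only member that fell against both other groups in Lysfree cells. Pycr1 (ENSMUSG00000025140, chromosome 11, 120635712 to 120643769, minus strand) encodes a mitochondrial reductase for the last step of proline synthesis. It was at 11.5, 10.8 and 12.4 FPKM in Undifferentiated, 11.1, 11.5 and 10.6 FPKM in Differentiated and 6.97, 7.49 and 6.55 FPKM in Lysfree libraries. The Undifferentiated and Differentiated libraries overlapped, and all Lysfree libraries lay below them. Pycr1 was 1.51-fold lower in Lysfree vs Differentiated (log2 fold change -0.60 ± 0.11, edgeR adjusted p = 1.28e-04) and 1.60-fold lower in Lysfree vs Undifferentiated (-0.68 ± 0.12, adjusted p = 1.91e-05). In Differentiated vs Undifferentiated the value was -0.08 ± 0.08, with a 95% interval from -0.23 to 0.06 (adjusted p = 0.39).

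Prodh had the lowest level of the 9 genes and counts from 80 to 390. Prodh (ENSMUSG00000003526, chromosome 16, 18060357 to 18090203, minus strand) encodes proline dehydrogenase, the mitochondrial enzyme that starts proline breakdown. It was at 0.506, 0.538 and 0.641 FPKM in Undifferentiated, 2.68, 2.69 and 2.57 FPKM in Differentiated and 0.985, 0.814 and 0.839 FPKM in Lysfree libraries. The Differentiated libraries were highest and the Lysfree libraries stood between, without overlap. Prodh rose 4.66-fold in Differentiated vs Undifferentiated (2.22 ± 0.13, edgeR adjusted p = 4.81e-64) and was 2.88-fold lower in Lysfree vs Differentiated (-1.53 ± 0.14, adjusted p = 1.32e-08). It was higher in Lysfree than in Undifferentiated cells by 0.70 ± 0.20 (adjusted p = 0.00496), a call that did not hold with limma on log2(FPKM + 0.1) (0.57, adjusted p = 0.086).

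**Figure D2:**
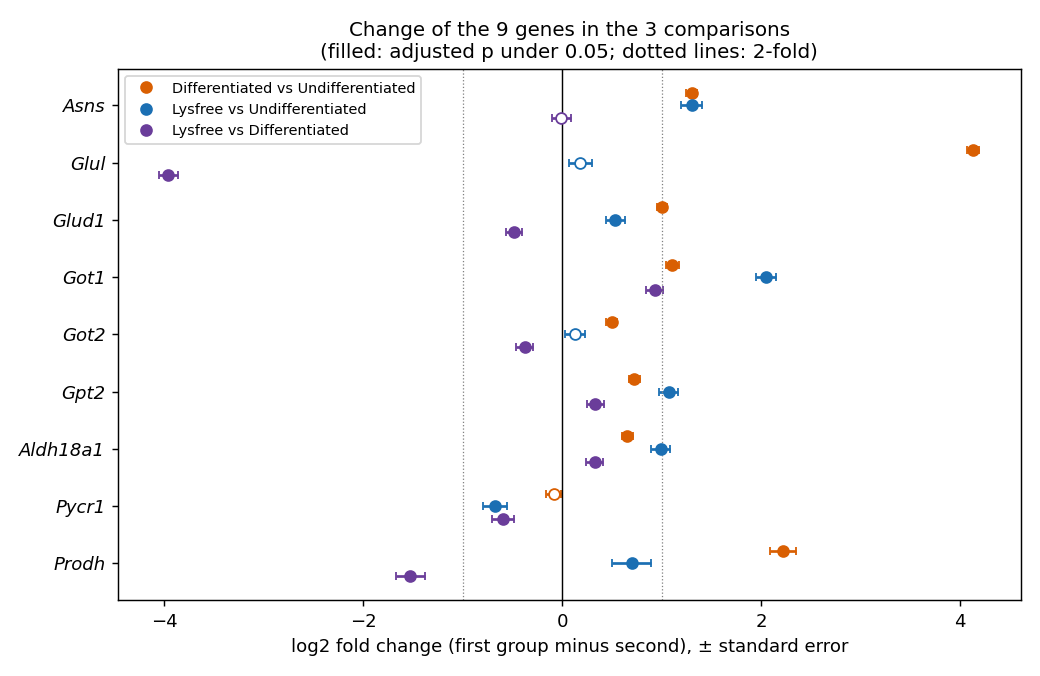
Fitted log2 fold change (horizontal axis, first group minus second, ± SE) of the 9 genes in the 3 comparisons, with filled points for an adjusted p under 0.05 and dotted lines at a 2-fold change. In Lysfree vs Differentiated the points of Got1, Gpt2 and Aldh18a1 lie to the right of 0, that of Asns at -0.01 and the other 5 to the left, as far as -3.96 for Glul.

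Of 12 other proline and ornithine genes, 10 were tested in Lysfree vs Differentiated, where 3 rose, 4 fell and 3 did not pass, with a median log2 fold change of -0.36. Aldh4a1, which follows Prodh in proline breakdown, fell from 9.78 ± 0.298 FPKM in Differentiated to 1.73 ± 0.150 FPKM in Lysfree libraries (-2.43 ± 0.12, edgeR adjusted p = 9.37e-13). Pycrl, another pyrroline-5-carboxylate reductase, fell as well, from 49.1 ± 3.50 to 29.9 ± 1.75 FPKM (-0.65 ± 0.10, adjusted p = 2.7e-05). Unlike Pycr1, Pycrl did not pass in Lysfree vs Undifferentiated (-0.01 ± 0.12, edgeR adjusted p = 0.952). Azin2, an antizyme inhibitor of the polyamine pathway, fell from 9.39 ± 0.654 to 3.18 ± 1.05 FPKM (-1.49 ± 0.18, adjusted p = 5.21e-07). Azin1, the other antizyme inhibitor of the list, rose from 18.7 ± 0.792 to 32.6 ± 6.31 FPKM (0.87 ± 0.11, edgeR adjusted p = 1.21e-06). Of the 10, 5 rose and 2 fell in Differentiated vs Undifferentiated (median 0.80), and in Lysfree vs Undifferentiated the counts were again 5 and 2 (median 0.18).

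Since FPKM are levels per length, paired enzymes were set against each other within each library, as ratios. The FPKM ratio of Got2 to Got1 was 1.74, 1.69 and 1.80 in Undifferentiated, 1.15, 1.1 and 1.17 in Differentiated and 0.485, 0.426 and 0.472 in Lysfree libraries. The mitochondrial transcript thus led in the first 6 libraries and the cytosolic transcript in the Lysfree libraries. The log2 ratio differed by -1.31 between Lysfree and Differentiated (pooled SD 0.0791, n = 3 and 3). In the Lysfree libraries the 2 alanine aminotransferases went the other way, although both ratios fell from Undifferentiated to Differentiated libraries. The ratio of Gpt2 to Gpt was 3.02, 2.59 and 2.69 in Undifferentiated, 1.04, 1.11 and 1.17 in Differentiated and 21.6, 12.5 and 10.4 in Lysfree libraries, so that the mitochondrial form was ahead in every library and most so in Lysfree 1.

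The ratio of Aldh18a1, which makes pyrroline-5-carboxylate from glutamate, to Aldh4a1, which turns it back, was 14.7, 14.9 and 21.4 in Undifferentiated, 5.92, 6.14 and 6.29 in Differentiated and 41.3, 40.9 and 42.2 in Lysfree libraries. The Differentiated libraries were lowest and the Lysfree libraries highest, without overlap. For Asns to Asrgl1, which cleaves asparagine, the geometric mean was 33.5 in Undifferentiated, 61.1 in Differentiated and 69.7 in Lysfree libraries, and the last 2 groups overlapped. In an exact two-sided permutation test of the log2 ratios, 3 libraries against 3 cannot go below p = 0.1. That smallest value was reached in 11 of the 12 tests over 4 pairs and 3 comparisons (adjusted p = 0.109), and Lysfree vs Differentiated gave p = 0.8 for Asns to Asrgl1 (exact permutation).

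**Figure D3:**
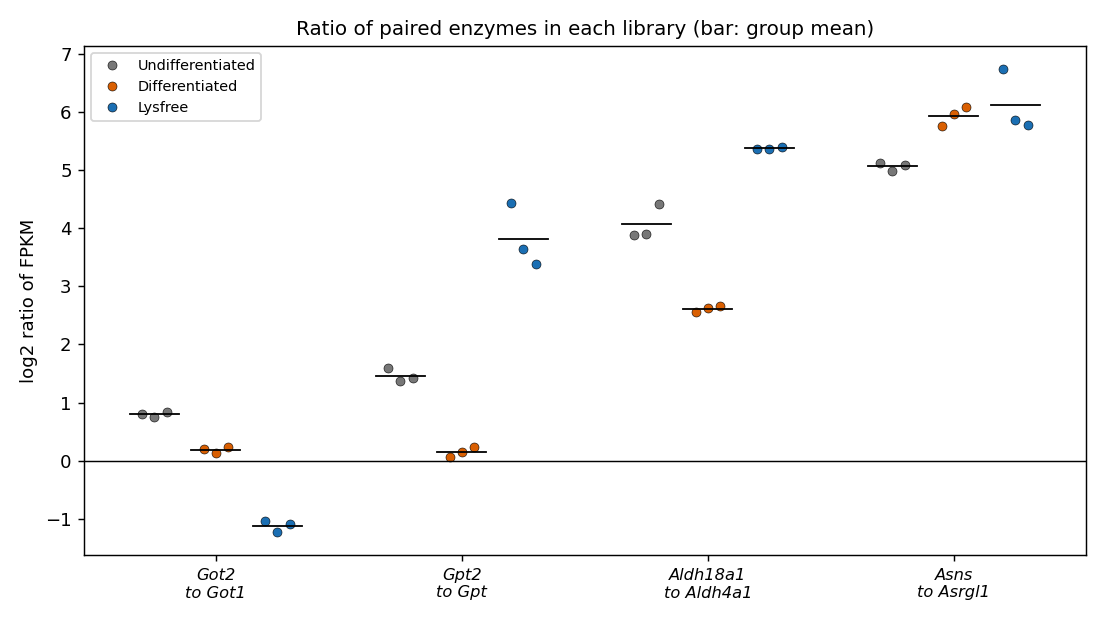
Log2 ratio of the FPKM of 2 enzymes (vertical axis) in each library, for 4 pairs (horizontal axis), with points for libraries and bars for group means. Got2 to Got1 is above 0 in the Undifferentiated and Differentiated libraries and below 0 in the Lysfree libraries, and Aldh18a1 to Aldh4a1 is highest in the Lysfree libraries, at ratios of 40.9 to 42.2.

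Carriers of glutamate, aspartate and glutamine were tested for 20 of 21 genes in Lysfree vs Differentiated, where 19.7% of all genes were called higher and 18.8% lower. Of the 20 carriers, 7 rose, 5 fell and 8 did not pass (median 0.39, against -0.06 over all genes). Plasma membrane carriers were among the rises. Slc38a1, a glutamine carrier, went from 0.0606 ± 0.0125 FPKM in Differentiated to 0.626 ± 0.0778 FPKM in Lysfree libraries (3.43 ± 0.22, edgeR adjusted p = 4.55e-11), and Slc1a4, a carrier of alanine, serine and cysteine, from 14.9 ± 0.486 to 36.3 ± 2.96 FPKM (1.35 ± 0.09, adjusted p = 1.76e-10). Slc38a7, a lysosomal glutamine and asparagine carrier, rose from 10.1 ± 0.715 to 23.8 ± 0.266 FPKM (1.30 ± 0.10, adjusted p = 5.37e-10). Falls included the mitochondrial carriers Slc25a11 (2-oxoglutarate and malate), from 77.2 ± 1.09 to 22.2 ± 1.27 FPKM, and Slc25a22 (glutamate), from 22.6 ± 0.228 to 9.44 ± 1.51 FPKM. Neither membrane moved as a whole. The mitochondrial aspartate and glutamate carrier Slc25a12 rose from 7.13 ± 0.376 to 13.7 ± 2.05 FPKM (1.00 ± 0.11, edgeR adjusted p = 1.23e-07). The plasma membrane glutamine carrier Slc1a5 went down from 199 ± 2.66 to 108 ± 2.14 FPKM. The glutamate and aspartate carrier Slc1a3 fell from 5.16 ± 0.387 to 0.817 ± 0.0660 FPKM. In Differentiated vs Undifferentiated 7 of 19 carriers rose and 7 fell (median 0.17), and in Lysfree vs Undifferentiated 7 of 18 rose and 3 fell (median 0.37).

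Of 33 genes of ATF4 and the amino acid response other than Asns, 23 rose and 7 fell in Differentiated vs Undifferentiated (median 0.81), 27 rose and 2 fell in Lysfree vs Undifferentiated (median 1.20), and 16 rose and 11 fell in Lysfree vs Differentiated (median 0.26). In the same order, 23.0%, 18.0% and 19.7% of all genes tested were called higher, and 23.2%, 17.1% and 18.8% lower. The transcript of Atf4 itself was at 237 ± 10.6 FPKM in Undifferentiated, 307 ± 8.74 FPKM in Differentiated and 221 ± 40.6 FPKM in Lysfree libraries, which says nothing of its translation. The DEGs of this list that rose most in Lysfree vs Differentiated were Stc2, a secreted glycoprotein (1.90 ± 0.16, edgeR adjusted p = 2.92e-09), Aldh1l2, a mitochondrial folate enzyme (1.51 ± 0.08, adjusted p = 3.7e-12), and Slc3a2, the heavy chain of amino acid exchangers (1.33 ± 0.10, adjusted p = 8.44e-10). Fgf21, a secreted metabolic hormone, fell from 20.4 ± 2.51 to 2.94 ± 0.379 FPKM, and Nupr1, a stress-response regulator, from 59.5 ± 2.51 to 27.0 ± 11.6 FPKM.

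**Figure D4:**
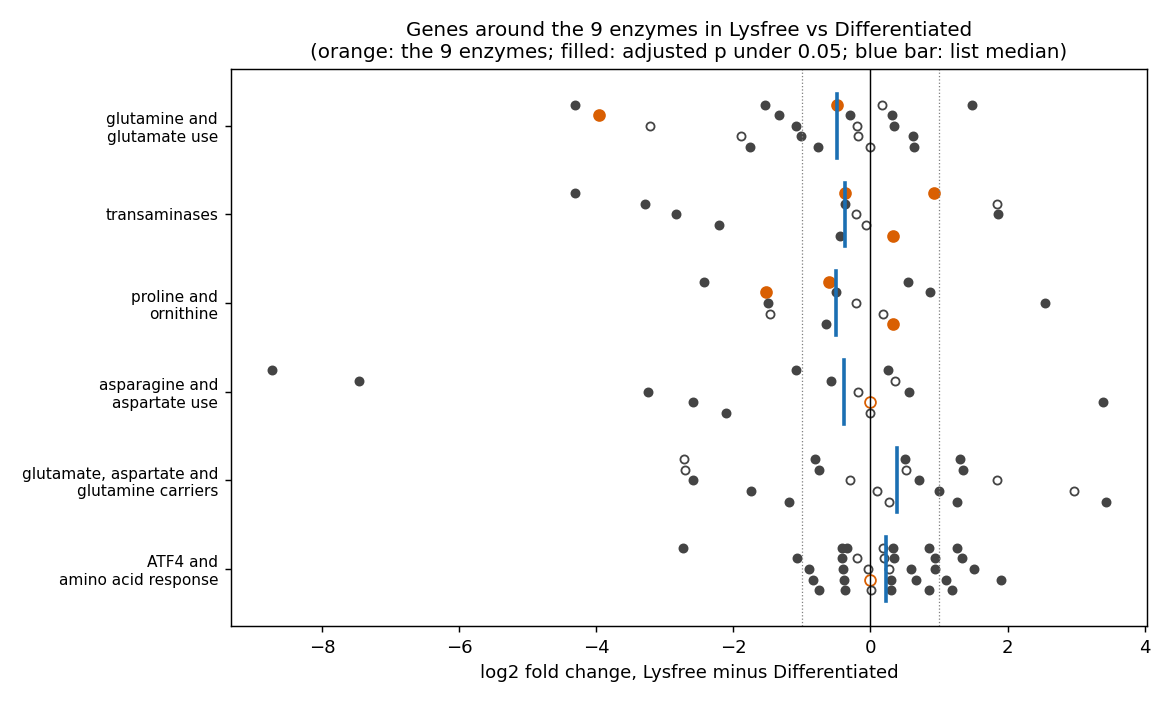
Fitted log2 fold change in Lysfree vs Differentiated (horizontal axis) of every tested gene in 6 lists around the enzymes (rows), with the 9 enzymes in orange, filled points for an adjusted p under 0.05 and a blue bar at the list median. The medians lie at or below -0.37 in the first 4 lists, the 9 enzymes included, and at 0.39 and 0.23 in the carriers and the ATF4 list, while the 2 points furthest left, Nat8l and Aspg, have at most 2 counts in a Lysfree library, so that their fitted values depend on the prior count.

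Across the 9 libraries, the genes most like each member were those with the smallest root mean square difference in centred log2 CPM among 12709 other genes with a mean of at least 1 CPM. For Glul they were Pnpla2, the adipose triglyceride lipase (0.121), and Agpat2, an acyltransferase of triglyceride synthesis (0.173). The next for Prodh were Cav1, the coat protein of caveolae (0.095), and Slc2a1, a glucose carrier (0.102). Nearest to Asns were Dck (0.047) and Tigd2 (0.055), to Glud1 Srpk1 (0.059) and Txn2 (0.061), to Got1 Alg3 (0.076) and Jade3 (0.135), to Got2 Sptlc2 (0.044) and Srsf1 (0.046), and to Pycr1 Pqlc3 (0.060) and Rnpep (0.085). Gpt2 was closest to Psmg2 (0.041) and Ints4 (0.052), and Aldh18a1 to Hspa4 (0.036) and Gpt2 (0.052). Gpt2 and Aldh18a1 were thus the members most like each other, whereas the member nearest to Glul, Prodh, differed from it by 1.06. These are differences over 9 libraries of 3 groups, chosen as the smallest of many.

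Some reads could in part belong to other genes, since the strand setting of the counting is not given in the sources used here. Glul shares 116 exon bases with the antisense gene Teddm2, which had at most 19 counts, and Got2 shares 434 with the antisense gene Gm45760, which had at most 3. The pseudogene Gm15801 lies within Aldh18a1 on the same strand, shares 0 exon bases with it and had at most 355 counts. Prodh overlaps Dgcr6 on the opposite strand, also with 0 shared exon bases, but Dgcr6 had up to 1113 counts, against 80 to 390 for Prodh. Processed pseudogenes close in sequence were Glns-ps1 for Glul (96.8% identity over 1126 bases, at most 3 counts), Glud-ps for Glud1 (at most 25 counts), Got2-ps1 for Got2 (99.1% identity, at most 47 counts) and Gm5049 for Gpt2 (92.2% identity, 0 counts). Asns, Got1, Pycr1, Aldh18a1 and Prodh had no gene of at least 90% identity over 150 bases.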

How the data were processed

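RNA-seq was analysed for 9 libraries of 3T3-L1 cells, grouped from the sample labels. The authors mapped paired-end reads to mm10 with HISAT2 2.0.5 and counted them with featureCounts 1.5.0-p3 (tools from the submitters' processing notes). The deposited counts are reads per gene, not normalized, and the deposited FPKM are the same counts per gene length and library total times a further factor per library (0.932 to 1.037, medians over genes with high counts), whose origin is not given in the sources used here. The annotation release and strand setting are not given in the sources used here. All columns of values belonged to these samples.

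The members and gene lists were chosen with earlier results of these data known. Within each pair of groups, every gene detected (count over 0) in at least 1 of 6 libraries was tested with edgeR 4.0.16 (glmQLFit, glmQLFTest, TMM) in R 4.3.3, with Benjamini-Hochberg adjustment. The SE is the size of the log2 fold change over the square root of F. Ratios of FPKM were tested by exact permutation (SciPy 1.17.1), gene lists were described by counts and medians alone, and similar sequences were found with BLASTN 2.17.0 from the longest open reading frame of each member. Of a symbol with 2 identifiers, the one with more counts was used. At 15880144 to 21806693 counts per library, the members had at least 80 counts in each.

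Named were all 9 members, the genes of the ratios, for each list the 3 largest rises and 3 largest falls among other DEGs whose mean reached 1 CPM in Lysfree vs Differentiated, and the 2 genes most like each member (log2 CPM with a prior count of 2). Other ratios that had been planned, and some list genes that meet the rule, are not reported here. Pycrl, Atf4, Aspg, Ctps, Azin1, Slc25a12, Slc1a5 and the single adipocyte and fibroblast markers were added after their values were seen. Alternatives were DESeq2 1.42.0, its size factors, a fit of all 9 libraries, no scaling beyond library sizes, a minimum of 10 counts per library, filterByExpr, robust dispersion, the replicate number as a block, limma 3.58.1 on log2(FPKM + 1) and log2(FPKM + 0.1), for ratios a pseudocount of 0.1 or raw counts, and leaving out each library. The fits were tested on simulated data.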

Additional observations from a re-analysis of the deposited data

How the results depend on the processing

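The number of members called stayed at 8 in Differentiated vs Undifferentiated under all 16 alternatives, and ranged from 6 to 7 in Lysfree vs Undifferentiated and from 8 to 9 in Lysfree vs Differentiated. Of 432 fold changes of members refitted, 427 kept their direction and side of the adjusted p threshold of 0.05. The exceptions were Prodh in Lysfree vs Undifferentiated with limma on log2(FPKM + 0.1) (0.57, adjusted p = 0.086) and Asns in Lysfree vs Differentiated, which reversed to 0.066 with library sizes alone, 0.037 without Lysfree 2 and 0.065 without Lysfree 3 and was called at -0.16 without Lysfree 1 (adjusted p = 1.2e-04). The cause was not tested. Members among DEGs were 4 to 5 (Differentiated vs Undifferentiated), 2 to 4 (Lysfree vs Undifferentiated) and 2 in all fits without 1 library for Lysfree vs Differentiated, where limma on log2(FPKM + 1) gave 1 and library sizes alone gave 3. Over all genes, DEGs numbered 5329, 3426 and 4507 in the 3 comparisons in that order, against 3488, 2244 and 2891 with at least 10 counts in every library, which tests fewer genes, and 2726, 1474 and 2198 with limma on log2(FPKM + 1), which shrinks changes of low genes.

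Of 96 refitted ratio differences, 94 kept their direction and moved by less than 1 SD between replicates (pooled over the 2 groups). The SD was 0.0350 for Aldh18a1 to Aldh4a1, whose log2 difference in Lysfree vs Differentiated was 2.69 with a pseudocount in place of 2.76. In the same comparison, with each library left out in turn, Asns to Asrgl1 ranged from -0.117 (without Lysfree 1) to 0.366 (without Lysfree 3) around 0.189 with all libraries, where 1 SD was 0.395.

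The replicate numbers gave no clear sign of pairing. Deviations of libraries with the same number correlated by -0.13 to 0.16 over genes, and those with different numbers by -0.20 to 0.16. With 3 libraries a group, such values cannot show that the numbers did not pair the cultures. With the number as a replicate block, 10578, 8319 and 8772 genes were called in place of 11260, 8428 and 9280, members called were 8, 7 and 8, and no member's call changed. With 3 libraries a group, Prodh had the lowest counts of the 9 (80 to 390), and its coefficient of variation reached 12.6% in Undifferentiated libraries, while that of Asns reached 15.3% in Lysfree libraries.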
